A study of Mus musculus with 12 samples.

Results

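The mitosis and G2/M genes described here are 50 mouse genes whose products bring a cell from G2 through chromosome segregation and division. They were chosen by symbol, matched through their Ensembl identifiers, and all 50 were found among the 53379 genes of the count table. All 50 also passed the filter on low counts and are among the 14299 genes of the table that were tested. Messenger RNA had been sequenced from a mouse B cell lymphoma line of the Eµ-myc model on a C57BL/6 background, in which an immunoglobulin heavy chain enhancer drives the oncogene Myc in B cells, so every group carries this transgene. The 4 groups of 3 libraries are unstimulated cells and cells given recombinant mouse interferon-γ (IFN-γ, a cytokine of T and NK cells) at 5 ng/mL for 1 h, 6 h or 24 h. Shorter exposures were cut off with 50 µg/mL of an antibody that blocks the cytokine, and harvest came 24 h after stimulation. The values after 1 h and 6 h therefore describe cells some hours after the cytokine was blocked. Antibody is labelled for these groups only, so its effect cannot be told apart from that of exposure length. For unstimulated cells the labels give no harvest time. The labels do not say whether unstimulated cells or those exposed for 24 h received antibody, or whether the 3 libraries of a group came from separate cultures, so the p-values measure only the spread between these libraries, which may be technical.

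Entry into mitosis is driven by the kinase CDK1 bound to cyclin A or cyclin B, which the CDC25 phosphatases switch on and which Aurora and Polo-like kinases help to activate. Kinetochores then tie chromosomes to spindle microtubules, the spindle checkpoint holds the anaphase-promoting complex back until all are attached, and kinesins, condensin and cytokinesis proteins separate the chromosomes and the daughter cells. Transcripts of most of these genes peak in G2 and M. The DREAM complex represses them in quiescence and G1, and the MYB-MuvB and FOXM1 activators raise them, through CHR promoter elements. CCAAT boxes are also known in promoters of G2/M genes. IFN-γ can slow the division of many cell types, whereas Myc drives B cells into cycle. In RNA from a whole culture, a change in the share of cells in G2 and M cannot be told apart from a change in the amount of transcript per cell.

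Promoters are shown because CHR and CCAAT elements are known for G2/M genes, and the 6 chosen belong to genes that the results turn on. RefSeq promoter windows of GRCm38.p6, from 250 bases before to 50 bases after the annotated start, were found for 42 of the 50 genes, with 45 windows in all. Ccna2, Cdc25c, Aurkb, Spc24, Incenp, Kif20a, Tpx2 and Smc4 had no entry. Both strands were searched for the CHR element (TTTGAA or TTCGAA) and for the CCAAT box (CCAAT), and the elements overlapped each other in 1 window. Starts are those of RefSeq, and GENCODE M21 places the outer edge of Cenpa, Kif22, Ccnb1 and Cdk1 farther upstream. The 250 bases before each start follow, with every CHR and CCAAT match in capitals (from the other strand they read TTCAAA and ATTGG, while TTCGAA reads the same on both).
Cenpa (chr5:30666636-30666885, plus strand): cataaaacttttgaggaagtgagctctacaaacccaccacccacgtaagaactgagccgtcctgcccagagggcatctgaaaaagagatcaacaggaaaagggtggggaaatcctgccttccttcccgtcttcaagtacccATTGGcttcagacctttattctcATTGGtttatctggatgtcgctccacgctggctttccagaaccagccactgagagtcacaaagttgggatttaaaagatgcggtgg
Top2a (chr11:99024190-99024439, minus strand): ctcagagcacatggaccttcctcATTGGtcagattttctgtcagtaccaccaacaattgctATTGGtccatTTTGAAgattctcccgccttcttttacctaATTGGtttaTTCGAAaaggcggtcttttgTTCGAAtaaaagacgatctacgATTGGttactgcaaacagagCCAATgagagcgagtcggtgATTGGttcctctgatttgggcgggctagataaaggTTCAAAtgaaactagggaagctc
Kif22 (chr7:127042421-127042670, minus strand): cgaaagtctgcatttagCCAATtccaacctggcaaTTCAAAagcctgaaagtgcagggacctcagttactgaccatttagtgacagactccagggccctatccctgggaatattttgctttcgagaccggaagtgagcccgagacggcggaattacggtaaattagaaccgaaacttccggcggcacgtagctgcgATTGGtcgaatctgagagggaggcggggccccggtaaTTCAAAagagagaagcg
Ccnb1 (chr13:100786487-100786736, minus strand): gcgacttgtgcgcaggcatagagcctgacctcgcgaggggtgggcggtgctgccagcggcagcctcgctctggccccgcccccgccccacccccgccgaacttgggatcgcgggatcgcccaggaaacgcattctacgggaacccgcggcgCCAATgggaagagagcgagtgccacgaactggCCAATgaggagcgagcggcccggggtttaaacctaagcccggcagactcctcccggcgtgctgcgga
Mki67 (chr7:135716380-135716629, minus strand): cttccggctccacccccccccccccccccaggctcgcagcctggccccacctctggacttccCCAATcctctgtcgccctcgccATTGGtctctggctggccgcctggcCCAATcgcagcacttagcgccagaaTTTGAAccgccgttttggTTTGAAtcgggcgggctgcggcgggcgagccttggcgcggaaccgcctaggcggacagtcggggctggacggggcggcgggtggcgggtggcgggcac
Cdk1 (chr10:69352913-69353162, minus strand): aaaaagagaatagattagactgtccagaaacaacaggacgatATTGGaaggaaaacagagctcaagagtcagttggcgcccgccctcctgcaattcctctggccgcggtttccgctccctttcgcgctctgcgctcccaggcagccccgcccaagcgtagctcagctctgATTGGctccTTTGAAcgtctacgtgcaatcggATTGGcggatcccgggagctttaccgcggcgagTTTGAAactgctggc

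A CHR match stood in 37 of the 45 windows (82.2%), against 19.2% of all 32851 promoter windows of the table. A CCAAT match stood in 34 of the 45 (75.6%), against 37.4% of all, and both elements in 31 (68.9%), against 7.52%. Bub3, Ect2 and Prc1 had overlapping windows, in which the same element is counted once per window. Of the 51 CHR matches, 35 lay within 50 bases of the start and 24 lay after it, outside the stretches printed above. This is the case for Cenpa, which encodes the histone H3 variant of centromeres: its upstream sequence holds CCAAT matches and no CHR match, and its CHR match begins at base 17 after the start. Top2a, encoding the DNA topoisomerase that disentangles sister chromatids, held 4 CHR and 6 CCAAT matches upstream. Cdk1 held 2 and 3, Mki67 2 and 3, and Kif22 2 and 2. Ccnb1 (cyclin B1) held 2 CCAAT matches and no CHR match. It is among the 8 genes with an entry whose windows hold no CHR match, together with Plk4, Nek2, Cenpe, Nuf2, Birc5, Kif18a and Ncaph. A match of these letters is a description of the sequence, and no match says only that the letters are not in the window. On GRCm38, in GENCODE M21, Cenpa (ENSMUSG00000029177.9) lies at chr5:30666777-30674830, Top2a (ENSMUSG00000020914.17) at chr11:98992943-99024189, Kif22 (ENSMUSG00000030677.8) at chr7:127027729-127042471, Ccnb1 (ENSMUSG00000041431.16) at chr13:100778650-100786570. Likewise Mki67 (ENSMUSG00000031004.8) lies at chr7:135689784-135716361, Cenpf (ENSMUSG00000026605.14) at chr1:189640606-189688086, Incenp (ENSMUSG00000024660.8) at chr19:9872296-9899551, Kif23 (ENSMUSG00000032254.10) at chr9:61915905-61946774. All 8 are protein-coding genes, and the counts cover their exons as the authors' annotation defined them.

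Libraries held 49440358 to 67096610 counts. Low counts were mostly even, since between 69.9% and 73.9% of the genes with 1 to 20 counts had an even count, the pattern that counting both mates of a pair gives, so counts overstate the number of independent molecules. Levels are given in CPM after TMM scaling. The least covered of the 50 genes still had at least 1014 counts in every library, and the median coefficient of variation of a gene within a group was 3.31%. The cells carried B cell transcripts throughout: the summed level of 8 B cell markers ran from 2543 to 2709 CPM over the 12 libraries. The sums of 6 T and NK cell markers (at most 0.406 CPM), 7 myeloid markers (1.36 to 2.95 CPM, mostly Itgam) and 4 fibroblast markers (at most 0.0361 CPM) were near 0, and Cd4, Cd8a, Nkg7, S100a8, S100a9, Col3a1 and Pdgfra had no count in any of the 12 libraries.

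The mitotic programme was strongly expressed in every group, and its summed share of all counts stayed between 1.29% and 1.41% over the 12 libraries. The 50 genes together took 1.34% ± 0.029 (SD, n = 3) of all counts in unstimulated cells. The exposures gave 1.39% ± 0.020 for 1 h, 1.39% ± 0.014 for 6 h and 1.33% ± 0.039 for 24 h. The 24 h group overlapped the unstimulated one, from 1.29% in replicate 3 to 1.36% in replicate 2. All 6 libraries of the shorter exposures lay above all 3 unstimulated ones (1.38% to 1.41% against 1.32% to 1.37%), but narrowly. The closest were replicate 3 of 1 h and of 6 h, at 1.377%, against 1.371% in unstimulated replicate 2. How often other sets of genes separate in this way was not counted. The proliferation marker Mki67, the most abundant of the 50 in CPM, had a mean level of 1973 ± 92.1 CPM without IFN-γ and of 2260 ± 116 CPM after 1 h. The summed level of the 50 genes in the same groups was 13340 ± 226.5 and 13980 ± 344.3 CPM, so Mki67 alone carries much of that rise.

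Per kilobase of exon, the scale on which genes can be compared, Ccna2 (cyclin A2) was highest in unstimulated cells at 226 ± 5.99 CPM per kb. Mki67, which encodes a protein coating mitotic chromosomes, followed at 196 and Smc4, a condensin subunit, at 177, with Top2a next at 169. At the other end stood Cdc25c, a phosphatase that activates CDK1, at 3.93 CPM per kb, Ndc80, the microtubule-binding kinetochore subunit, at 6.56, and the kinesin gene Kif14 at 6.66. Exon lengths are unions over annotated transcripts, so a gene with a long rarely used exon can be placed too low.

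**Figure D1:**
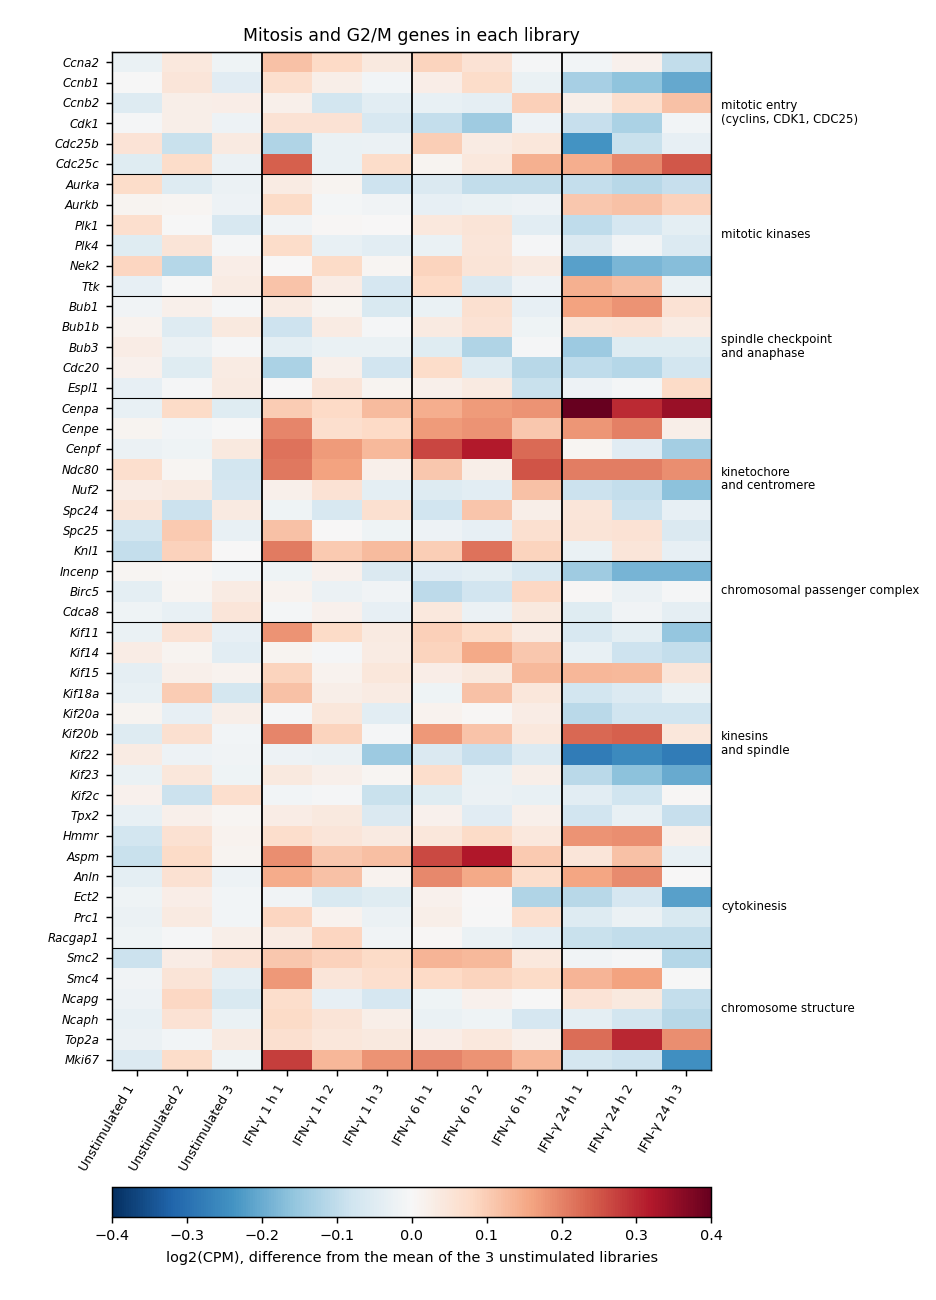
Each row is one of the 50 genes, grouped by role, and each column one of the 12 libraries; colour gives log2(CPM) minus the mean of the 3 unstimulated libraries, from -0.4 (blue) to 0.4 (red). Cenpa and Top2a are red and Kif22, Incenp, Ccnb1 and Kif23 blue in all 3 libraries of the 24 h exposure, while Cenpf and Mki67 are red after 1 h and 6 h.

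Exposure for the whole 24 h changed 13 of the 50 genes, 7 upward and 6 downward, and no change reached 2-fold. The largest rises were in the centromeric histone gene Cenpa (27.6%) and in Top2a (17.8%). Kif22, a chromosome-bound kinesin, fell by 17.2% and Nek2, a centrosomal kinase, fell by 12.5%. In edgeR's quasi-likelihood test with Benjamini-Hochberg adjustment, 26% of the 50 passed an adjusted p of 0.05, beside 18.7% of all genes tested. By direction these were 14% higher and 12% lower, beside 10.3% higher and 8.35% lower among all genes. The 50 are abundant genes with a median standard error of 0.045 on the log2 scale, against 0.084 for all genes tested. Smaller changes can therefore pass in them, and noise widens their range of log2 fold changes less. Their log2 fold changes ran from -0.27 to 0.35 with a median of -0.042 and an interquartile range of 0.166, beside a median of -0.003 and an interquartile range of 0.276 over all genes. The median was -0.025 without unstimulated replicate 2 and -0.026 without 24 h replicate 3. Values below 0 were found in 32 of the 50. When each library's trend on GC content was removed, the split became 3 higher and 13 lower.

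The role groups that follow hold 3 to 12 genes each. Their counts stand beside the 18.7% of all genes tested that passed, and are too small to be read as traits of a group. Among the mitotic entry genes, 1 of 6 passed at 24 h. Ccnb1 stood at 261, 270 and 253 CPM in the unstimulated libraries and at 238, 234 and 227 CPM after 24 h, so the groups did not overlap. Here and below, such separation is likely for genes called from these same libraries and adds no support to a call. Its share over all genes was not counted. Its log2 fold change was -0.17 (SE 0.042), with an adjusted p of 0.00451. The CDK1 kinase gene itself gave no call. Cdk1 read 173, 177 and 172 CPM without IFN-γ and 163, 159 and 173 CPM after 24 h, where replicate 3 lay inside the unstimulated range (log2 fold change -0.08, SE 0.045, adjusted p = 0.261). Cdc25c had the largest shift of the group, 0.20 (SE 0.072), from 18.7, 20.3 and 19.0 CPM to 21.4, 22.1 and 23.0 CPM, without overlap and with an adjusted p of 0.0586 (0.047 with DESeq2). Ccna2, Ccnb2 (cyclin B2) and Cdc25b did not pass either.

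Of the 6 mitotic kinases, Nek2 alone passed. Its levels were 141, 123 and 135 CPM in unstimulated cells and 114, 117 and 118 CPM after 24 h, with log2 fold change -0.19 (SE 0.046) and adjusted p = 0.0033. The groups did not overlap, yet the lowest unstimulated library lay near them, and with unstimulated replicate 1 left out the adjusted p was 0.0534. Plk1, encoding Polo-like kinase 1, read 151, 144 and 138 CPM without IFN-γ and 135, 138 and 140 CPM after 24 h, and its groups overlapped (-0.07, SE 0.043, adjusted p = 0.286). Aurka, the spindle pole Aurora kinase gene, read 100, 91.7 and 93.6 CPM against 88.9, 88.0 and 89.1 CPM. All 3 of its 24 h libraries were lower than the unstimulated ones, but the difference of -0.10 (SE 0.045) gave an adjusted p of 0.128. Aurkb, Plk4 and Ttk gave no call in this comparison.

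The spindle checkpoint and anaphase group had 1 call of 5, Bub1, a checkpoint kinase gene, at 0.13 (SE 0.043, adjusted p = 0.03). Bub1b, Bub3, Cdc20 and Espl1, which encodes separase, did not pass, with log2 fold changes between -0.10 and 0.05. The kinetochore and centromere group, of 8 genes, held 3 of the 7 rises and 0 falls. Among all genes tested, 10.3% were higher and 8.35% lower. Cenpa read 124, 134 and 123 CPM in unstimulated cells and 169, 156 and 161 CPM after 24 h, with every treated library above every untreated one. Its log2 fold change was 0.35 (SE 0.043) with an adjusted p of 4.33e-07. Ndc80 (0.20, SE 0.06) and Cenpe, a kinetochore motor gene (0.14, SE 0.046), were also called higher, with adjusted p-values of 0.0204 and 0.0356. The other 5 genes of the group, Cenpf, Nuf2, Spc24, Spc25 and Knl1, did not differ from unstimulated cells beyond the threshold.

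In the chromosomal passenger complex, which corrects faulty attachments, the scaffold gene Incenp fell while Birc5 (survivin) and Cdca8 (borealin) gave no call. Incenp had 352, 351 and 347 CPM without IFN-γ and 317, 308 and 307 CPM after 24 h, a log2 fold change of -0.17 (SE 0.038, adjusted p = 0.0016). The unstimulated libraries were tight and clear of the 24 h ones.

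Kinesins and spindle genes moved in both directions, with 2 higher and 2 lower of 12. Kif22 had 204, 196 and 197 CPM in unstimulated cells and 164, 167 and 164 CPM after 24 h, with no overlap. Its log2 fold change was -0.27 (SE 0.041, adjusted p = 1.38e-05). Kif23, which encodes the motor subunit of centralspindlin, had 168, 177 and 169 CPM against 159, 153 and 149 CPM (-0.16, SE 0.041, adjusted p = 0.00722), again with no overlap. On the upper side were Kif20b at 0.17 (SE 0.054, adjusted p = 0.025) and Hmmr, a spindle microtubule protein gene, at 0.13 (SE 0.046, adjusted p = 0.0459). In both, replicate 3 of the 24 h group lay inside the unstimulated range. Kif11, Kif14, Kif15, Kif18a, Kif20a, Kif2c, Tpx2 and Aspm gave no call against unstimulated cells at 24 h.

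Among cytokinesis genes, Ect2, which activates RhoA at the cell equator, was called lower at -0.13 (SE 0.045, adjusted p = 0.0424). Anln, Prc1 and Racgap1 gave no call. In the chromosome structure group the single call was Top2a, with 1495, 1509 and 1559 CPM in unstimulated cells and 1774, 1873 and 1729 CPM after 24 h. The lowest treated library exceeded the highest untreated one, and the log2 fold change was 0.24 (SE 0.04) with an adjusted p of 5.45e-05. The condensin genes Smc2, Smc4, Ncapg and Ncaph did not pass. Mki67 had 1896, 2075 and 1947 CPM without IFN-γ and 1878, 1860 and 1664 CPM after 24 h, which did not overlap but came close. Its log2 fold change of -0.13 (SE 0.048) missed the threshold with an adjusted p of 0.056, and passed it with limma-voom at 0.0472. The value rests on single libraries, being -0.08 (adjusted p = 0.305) without 24 h replicate 3 and -0.09 (adjusted p = 0.234) without unstimulated replicate 2.

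The 13 calls differ in how far they rest on one library. Cenpa, Top2a, Kif22, Incenp, Ccnb1 and Kif23 passed whichever of the 6 libraries was left out, and in the 11 other alternative fits. The weaker rises did not: Ndc80, Kif20b, Cenpe, Bub1 and Hmmr were all lost without 24 h replicate 1, without 24 h replicate 2 or without unstimulated replicate 3, and all but Ndc80 without unstimulated replicate 1. They were also lost when the GC trend was removed. Without unstimulated replicate 2 only Cenpe of these 5 was lost, and without 24 h replicate 3 all 5 passed. Ect2 passed without 24 h replicate 2 and in no other fit with a library left out. The number of genes called was 7 without unstimulated replicate 1 or 3, 8 without 24 h replicate 1 or 2, 13 without unstimulated replicate 2 and 16 without 24 h replicate 3.

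**Figure D2:**
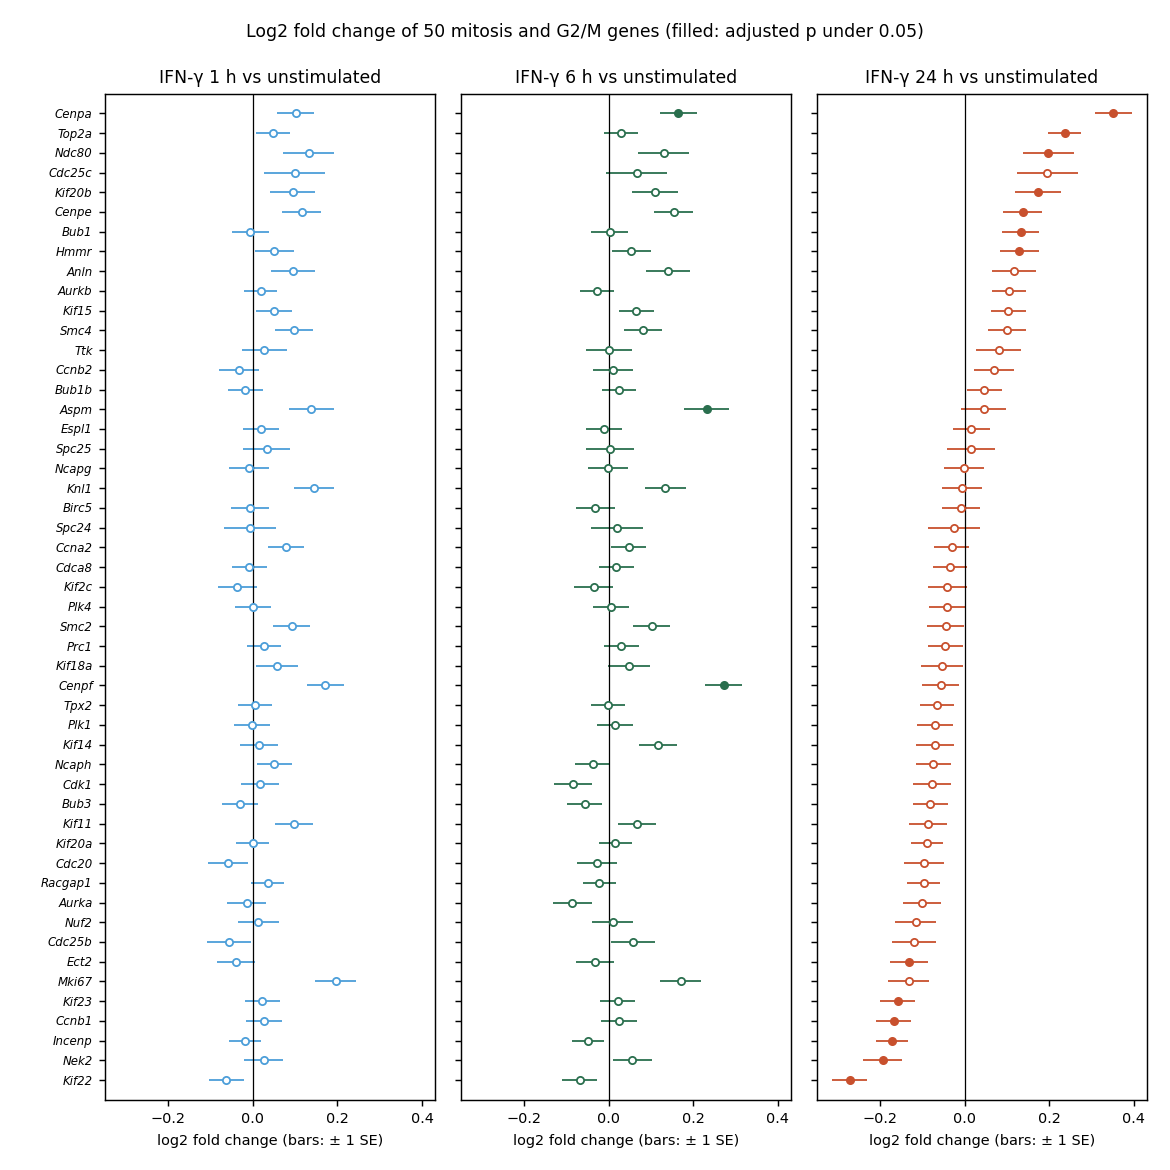
Log2 fold changes of the 50 genes against unstimulated cells after 1 h, 6 h and 24 h, with bars of 1 standard error and filled points for an adjusted p under 0.05; genes are ordered by the 24 h value. Filled points number 0, 3 and 13, and the 24 h values run from -0.27 for Kif22 to 0.35 for Cenpa.

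After an exposure of 6 h ended by antibody, 3 of the 50 genes were higher and 0 were lower at harvest. They were the kinetochore gene Cenpf (20.7%), the spindle pole gene Aspm (17.4%) and Cenpa (12.1%). The 6% called compares with 1.59% of all genes tested, and by direction with 1.17% higher and 0.427% lower among all genes. Cenpf, which encodes a large protein of the outer kinetochore, had 187, 187 and 195 CPM in unstimulated cells and 228, 236 and 222 CPM after 6 h. The groups stood well apart, with a log2 fold change of 0.27 (SE 0.043, adjusted p = 0.000367) that passed whichever library was left out. Aspm had 102, 114 and 109 CPM against 130, 135 and 117 CPM, and replicate 3 of the 6 h group came close to the unstimulated ones (0.23, SE 0.053, adjusted p = 0.0206). Cenpa had 140, 143 and 144 CPM, all above its unstimulated libraries (0.16, SE 0.043, adjusted p = 0.0493). Without 6 h replicate 1 or 2, or without unstimulated replicate 1 or 3, Cenpf was the 1 gene called. Without 6 h replicate 3 the genes were Aspm, Cenpe, Cenpf and Mki67. Mki67, with 2264, 2235 and 2163 CPM, lay above all 3 unstimulated libraries, at 0.17 (SE 0.048) and an adjusted p of 0.0701. The median over the 50 genes was 0.021 on the log2 scale, beside 0.0 over all genes tested.

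After 1 h of IFN-γ, 0 of the 50 genes passed in edgeR, where 0.42% of all genes did. At an unadjusted p under 0.05 there were 10 (20%), against 9.26% of all genes. DESeq2 called 2, Mki67 and Cenpf, and limma-voom 0. Mki67 read 2386, 2159 and 2235 CPM, each above every unstimulated library, with a log2 fold change of 0.20 (SE 0.048) and an adjusted p of 0.067 (0.0217 without unstimulated replicate 2). Cenpf read 220, 213 and 207 CPM, also without overlap (0.17, SE 0.043, adjusted p = 0.0786). Cdk1, Plk1, Aurka, Ccnb1 and Top2a had log2 differences between -0.01 and 0.05 here. The comparisons of 1 h, 6 h and 24 h share the 3 unstimulated libraries, so their values are not independent. For Cenpa the log2 differences were 0.10, 0.16 and 0.35 in that order, and for Mki67 0.20, 0.17 and -0.13.

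**Figure D3:**
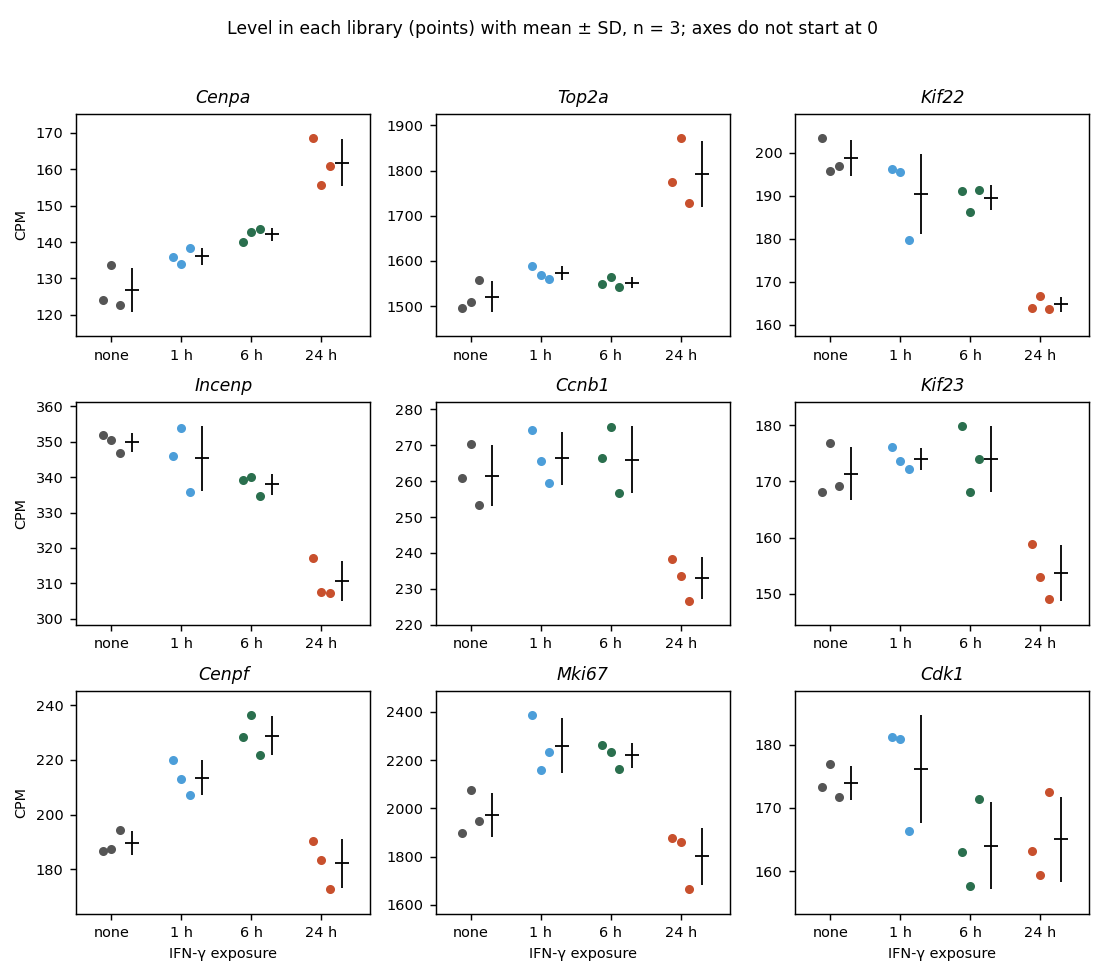
CPM of 9 genes in each library (points) with the mean and SD of each group (n = 3) by length of IFN-γ exposure; the axes do not start at 0. Cenpa and Top2a are highest and Kif22, Incenp, Ccnb1 and Kif23 lowest after 24 h, Cenpf is highest after 6 h, Mki67 lies above its unstimulated libraries after 1 h and 6 h and below them after 24 h, and the 24 h libraries of Cdk1 overlap the unstimulated ones.

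Set against the shorter exposures, which alone are labelled with antibody, the 24 h cells had more mitotic genes lower than higher. Compared with 1 h, 15 genes passed, 3 higher and 12 lower, which is 6% and 24% of the 50. Among all genes 18.9% passed, 10.2% higher and 8.78% lower. The median log2 difference was -0.056 over the 50 (-0.037 without 24 h replicate 1) and -0.005 over all genes. Mki67 was lowest relative to 1 h at -0.33 (SE 0.048, adjusted p = 7.61e-06), as its 1664 to 1878 CPM lay below the 2159 to 2386 CPM of the 1 h libraries. Cenpf (-0.23), Nek2 (-0.22), Kif22 (-0.21) and Ccnb1 (-0.19) came next, with adjusted p-values from 0.000257 to 0.00106. The others called lower were Kif11, the bipolar spindle motor gene, Kif23, Incenp, Knl1, Smc2, Racgap1 and Ncaph. Cenpa (0.25), Top2a (0.19) and Bub1 (0.14) were higher. In all 15 the groups did not overlap, which is likely for genes called from these same libraries and adds no support. Uncalled genes such as Nuf2, Kif18a and Ccna2 did not overlap either, and the share over all genes was not counted. Knl1, Smc2, Racgap1, Ncaph and Bub1 each lost the call in 3 or 4 of the 6 fits with a library left out, and Incenp without 1 h replicate 2.

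Compared with 6 h, 17 genes passed, 4 higher (8%) and 13 lower (26%), beside 16.5% of all genes, 8.92% higher and 7.63% lower. With each library's trend on exon length removed the split was 2 higher and 14 lower. Cenpf had the largest fall, from 222 to 236 CPM in the 6 h libraries to 173 to 191 CPM in those of 24 h, at -0.33 (SE 0.043, adjusted p = 1.43e-06). Mki67 (-0.30), Nek2 (-0.25), Kif22 (-0.20) and Ccnb1 (-0.19) followed, with adjusted p-values from 2.91e-05 to 0.00132. Kif14, Aspm, Kif23, Cdc25b, Kif11, Smc2, Knl1 and Incenp were also lower. The 4 called higher were Top2a (0.21), Cenpa (0.19), Aurkb (0.13), which encodes the kinase of the passenger complex, and Bub1 (0.13). The groups overlapped for 2 of the 17, Aspm and Bub1. Here too, separation of the others is likely for called genes and adds no support, and the share over all genes was not counted. Without 6 h replicate 1 the count was 9: Cenpf, Mki67, Nek2, Kif22, Ccnb1, Kif14 and Kif23 lower and Cenpa and Top2a higher, which were also the genes called whichever library was left out. Between 6 h and 1 h, 0 genes of the 50 passed in edgeR, DESeq2 or limma-voom, 5 (10%) had an unadjusted p under 0.05 against 4.94% of all genes, and 0.0979% of all genes tested passed.

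**Figure D4:**
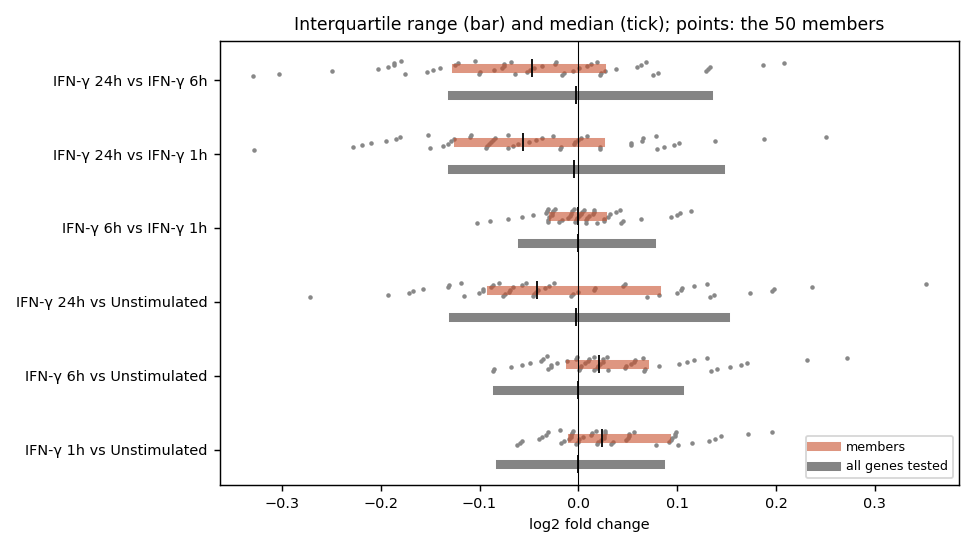
Median (tick) and interquartile range (bar) of log2 fold changes of the 50 genes and of all genes tested in the 6 comparisons, with a point for each of the 50. The interquartile range of the 50 is narrower than that of all genes in every comparison, for instance 0.166 against 0.276 for 24 h against unstimulated cells. The 50 also have smaller standard errors, so the narrower range does not show that they respond less.

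In all, 24 of the 50 genes passed edgeR's test in at least 1 of the 6 comparisons and 26 in none. The share of all genes tested that passed in at least 1 comparison was not counted, so these counts have no background beside them. Those 26 are Ccna2, Ccnb2, Cdk1, Cdc25c, Aurka, Plk1, Plk4, Ttk, Bub1b, Bub3, Cdc20, Espl1, Nuf2, Spc24, Spc25, Birc5, Cdca8, Kif15, Kif18a, Kif20a, Kif2c, Tpx2, Anln, Prc1, Smc4 and Ncapg. Of these 26, DESeq2 called 2, Cdc25c (24 h against unstimulated cells) and Kif20a (24 h against 6 h). In all, 10 passed under at least 1 alternative, with Ccna2, Nuf2, Kif18a, Ncapg, Plk1, Anln, Kif15 and Smc4 as the others, and 16 under none of those run. The log2 differences of the 26 lay between -0.13 and 0.20 over the 6 comparisons, at most 14.5% in size. Library by library, the median deviation of the 50 genes from their unstimulated means was -0.022, 0.021 and -0.009 in unstimulated replicates 1, 2 and 3 and -0.028, -0.023 and -0.038 in those of 24 h. The 6 h libraries had 0.026, 0.037 and 0.031 and the 1 h libraries 0.066, 0.028 and -0.004. The pooled SD of these library medians within groups was 0.021, and unstimulated replicate 1 was nearly as low as 24 h replicate 2.

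Longer genes had larger positive differences after the shorter exposures. Over the 50 genes, the Spearman correlation between exon length and log2 fold change was 0.573 after 1 h, 0.537 after 6 h and 0.157 after 24 h, a description over genes of the same libraries. Over all 14281 genes tested with a known length it was 0.164, 0.134 and 0.0737. With GC content the 50 genes gave -0.489, -0.381 and -0.306, and all genes -0.2, -0.189 and -0.16. Cenpf and Aspm are the longest of the 50 at 15433 and 11590 bases of exon, and Mki67 has 10061, against medians of 5298 for the 50 and 3709 for all genes tested. The trend on length also differed between libraries of one group. Across all genes, the correlation of a library's log2 differences from the unstimulated mean with length was 0.231 in 6 h replicate 2 and -0.06 in 6 h replicate 3. With that trend removed from each library, Cenpf, Aspm and Cenpa were the 3 genes called after 6 h. Mki67 was then lower at 24 h with an adjusted p of 0.015. With the replicate number as a block as well, Cenpa was not called after 6 h. The trend was fitted over all genes, where the correlation with length is weaker than over the 50. Removing it therefore need not remove the relation seen in the 50, which was not tested.

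**Figure D5:**
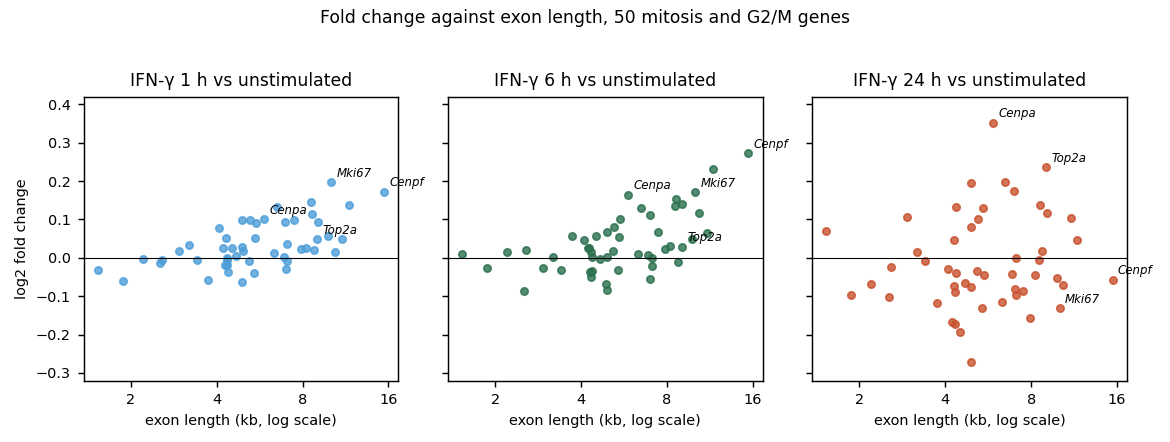
Log2 fold change against unstimulated cells by exon length (kb, log axis) for the 50 genes, in one panel for each exposure. Points climb with length after 1 h and 6 h (Spearman 0.573 and 0.537) and show little slope after 24 h (0.157).

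Other genes of the same pathways, 131 in 7 lists of which 128 were tested, were also divided at 24 h, with 9 higher and 16 lower (8 and 24 with the GC trend removed). The 19.5% called is close to the 18.7% of all genes tested, with 7.03% higher and 12.5% lower beside 10.3% and 8.35%, so the count is near the background. The 25 became 11 without 24 h replicate 1, 12 without unstimulated replicate 1 and 16 without unstimulated replicate 3. After 6 h there was 1 call, Cks1b, a CDK-binding subunit gene, lower at -0.23 (SE 0.049, adjusted p = 0.0105), which was lost without 6 h replicate 2 or unstimulated replicate 1, and 4 genes of the lists passed without 6 h replicate 3. After 1 h there were 0 in edgeR and DESeq2, and 11 (8.59%) at an unadjusted p under 0.05, against 9.26% of all genes. Among cyclin-CDK regulators of G2/M (1 higher and 4 lower of 12, or 41.7% called, on few genes), Wee1, the kinase that restrains CDK1, fell from 58.8 ± 2.81 to 48.1 ± 4.30 CPM (-0.29, adjusted p = 0.000487). Cks1b fell from 248.5 ± 15.96 to 204 ± 8.35 CPM (-0.28, adjusted p = 9.86e-05). Among the transcription factors and repressors of the programme, 1 of 19 was higher and 1 lower (10.5% called). Cdkn1a, the p21 inhibitor gene, rose by 0.47 at a level of only 3.49 to 4.83 CPM (adjusted p = 0.0205), and Lin52, a subunit of DREAM, fell by 0.21 (adjusted p = 0.0444).

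At 24 h against unstimulated cells, the largest change over these lists was in a brake of the G1 phase. Cdkn1b, which encodes the CDK inhibitor p27, stood at 46.9 ± 2.63 CPM in unstimulated cells and at 83.2 ± 2.40 CPM after 24 h (0.83, SE 0.056, adjusted p = 1.4e-12), and at 49.1 ± 2.56 and 49.96 ± 3.18 CPM after 1 h and 6 h. Ccnd1 (cyclin D1) rose from 93.3 ± 2.59 to 121 ± 3.78 CPM (0.37, adjusted p = 1.55e-07). That list of 16 G1 genes tested had 2 higher and 1 lower (18.8% called, beside 18.7% of all genes). In the cohesin and condensin list 0 of 14 were higher and 4 were lower (28.6% lower, beside 8.35% of all genes, on few genes), among them the cohesin ring genes Smc3 (-0.17, adjusted p = 0.00306) and Rad21 (-0.16, adjusted p = 0.00785). The kinetochore list gave 2 in each direction of 26 (7.69% each, below the 10.3% and 8.35% of all genes), with Ska1 at 0.16 and Ska3 at -0.16, subunits of the same microtubule-binding complex. The spindle and cytokinesis list gave 3 in each direction of 24 (12.5% each, a little above the same shares), with Psrc1, a spindle protein gene, at 0.59 and a level of 2.03 to 3.03 CPM, and Haus8, an augmin subunit gene, at -0.26. In the anaphase-promoting complex list 1 of 17 passed (5.88%, below the 18.7% of all genes), the activator gene Fzr1, at -0.21 (adjusted p = 0.00514). Cdkn1b, Ccnd1, Wee1, Cks1b, Smc3, Rad21 and Fzr1 passed at 24 h whichever library was left out, while Cdkn1a, Lin52, Ska1, Ska3, Psrc1 and Haus8 each lost the call in 4 or 5 of 6 such fits.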

How the data were processed

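Polyadenylated RNA of 12 samples was made into stranded libraries and read as pairs, per the labels' protocols. The table the authors deposited holds whole-number read counts per gene, which entered the fits unaltered. The submitters' processing notes name featureCounts 1.4.3-p1, STAR 2.5.2a, Picard and the build mm10. Neither the annotation release nor the counting's strand setting is stated there, so reads of overlapping genes on opposite strands may be shared. Samples were grouped by the label of exposure time.

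Genes were filtered with filterByExpr by group, scaled with TMM and fitted over 4 groups with edgeR 4.0.16 (R 4.3.3), using its robust quasi-likelihood test (8 residual degrees of freedom) and Benjamini-Hochberg adjustment over 14299 genes; an adjusted p under 0.05 is a call. Standard errors are approximate, the size of the log2 fold change over the root of its F value. The fitted common coefficient of biological variation was 0.0579. The procedure was tested on simulated data. Exon length, GC content and positions came from GENCODE M21, which may differ from the authors' gene models. Pairs of libraries within a group differed by a chi-square of 2.52 to 8.48 per degree of freedom, more than sampling noise. Each library was therefore counted as 1 replicate, which does not show that they came from separate cultures.

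The 50 genes, their 8 role groups, the 7 related lists and the markers were chosen with earlier results of these data known, so no list was tested as a set and each is described by counts and medians. Named genes are Mki67, Ccnb1, Cdk1, Plk1, Aurka and Top2a, up to 5 called genes in each direction of a comparison, the gene with the largest 24 h change in each role group, the 3 highest and lowest per kb, and up to 2 called genes of each related list; the rest are named to account for them. Alternatives were DESeq2 1.42.0, limma-voom (limma 3.58.1), RLE size factors, filters of 1 count in any library or of 1 CPM in 3 libraries, halved counts, trends on length or GC content removed per library, fits to the 6 libraries compared, the replicate number as a block, a threshold of 0.01, and each library left out in turn.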

Additional observations from a re-analysis of the deposited data

How the results depend on the processing

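For 24 h against unstimulated cells, 13 genes were called, 7 to 16 with a library left out (7 without unstimulated replicate 1 or 3, 8 without 24 h replicate 1 or 2, 16 without 24 h replicate 3) and 7 at an adjusted p under 0.01; the median of -0.042 moved to -0.064 with the GC trend removed and ran from -0.052 to -0.025 with a library left out. For 6 h, 3 genes were called, 1 to 4 with a library left out (1 without 6 h replicate 1 or 2 or unstimulated replicate 1 or 3), 5 with a filter of at least 1 count, 1 with only the 6 libraries compared and 1 at an adjusted p under 0.01. For 1 h, 0 were called, 0 to 1 with a library left out (1 without unstimulated replicate 2, Mki67), 2 with DESeq2, 2 with at least 1 count, 2 with only the 6 libraries compared and 1 with the GC trend removed. For 24 h against 6 h, 17 were called, 9 to 17 with a library left out (9 without 6 h replicate 1) and 9 at an adjusted p under 0.01. A stricter threshold gives fewer calls by construction; otherwise the cause was not tested. Another 190 counts and medians stayed within 1.5 times the count or 1 SD. Among single genes and the related lists, 1478 values stayed the same. For a gene this means the same side of the threshold, and for a list a count within 1.5 times. Of the rest, 137 calls were lost, 22 were gained and 12 counts moved, and 0 calls changed sign. The replicate numbers are shared across groups, and no sign was seen that they pair the samples. Over 18 same-numbered pairs of libraries the correlation of deviations ran from -0.0656 to 0.0618. Between other pairs of different groups it ran from -0.0538 to 0.0698. These correlations were taken over all genes tested and cannot exclude a weak pairing. With the replicate number as a block, 14 genes were called at 24 h, 2 at 6 h, 0 at 1 h, 15 for 24 h against 1 h, 17 for 24 h against 6 h and 0 for 6 h against 1 h. Counts of the 50 genes were at least 1014 in every library. Their standard errors at 24 h ran from 0.038 for Incenp to 0.072 for Cdc25c, the least covered gene, on the log2 scale. Depth may therefore still limit the least covered of them, which was not tested.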
